A study of Mus musculus with 9 samples.

Results

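The CC and CXC chemokines are small secreted proteins that guide leukocytes and other cells along gradients, and they are named for the spacing of conserved cysteines near their start. They were taken here as all genes whose platform symbol was Ccl or Cxcl followed by a number alone, which gave 30 of the 18193 genes measured: 17 CC and 13 CXC genes. Their levels were compared between 5 hepatocellular carcinomas (HCCs) of TKO (triple knockout) mice and 4 normal livers. Each sample was read on 1 array, a Mouse Genome 430 2.0 array of Affymetrix. The tumour mice carried the alleles RbΔ/Δ and p130Δ/Δ with p107+/-, so that p107, despite the name, was heterozygous per the labels, and they had received Ad-Cre, an adenovirus that expresses Cre recombinase, through the spleen 4 months before dissection. The livers were wild type, adult and tumour-free, and no label says that they had received virus. Genotype, virus and tumour state therefore cannot be told apart. The labels do not say which cells the virus reached or whether each sample came from an animal of its own. The p-values therefore set each difference only against the spread among these samples, which may be technical.

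Chemokines act through G protein-coupled receptors, and most receptors bind several ligands. In the liver, Cxcl12 is made by sinusoidal and stromal cells without a stimulus, whereas Cxcl9, Cxcl10 and Cxcl11 are induced by interferon and bind CXCR3 on activated T cells and NK cells. Cxcl1 and its relatives draw neutrophils through CXCR2, Ccl2 draws monocytes through CCR2, and Cxcl13 draws B cells through CXCR5. Atypical receptors (Ackr genes) bind chemokines without the usual signalling and remove or transport them.

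Promoter sequence was held for 20 of the 30 genes in the RefSeq-derived table (build GRCm38.p6, the 250 bases before to the 50 bases after the annotated start). The sequences of Cxcl9 and Cxcl10 are shown because these genes, which lie on either side of Art3 on chromosome 5, had differences of opposite sign between tumours and livers, and those of Cxcl12 and Cxcl13 because these genes were lower in the tumours. Each is the stretch of 250 bases before the start on the gene's own strand: Cxcl9 chr5:92328080-92328329 (minus strand), Cxcl10 chr5:92348890-92349139 (minus strand), Cxcl12 chr6:117168285-117168534 (plus strand) and Cxcl13 chr5:95956689-95956938 (plus strand). Capitals mark matches, on either strand, to a loose NF-kB motif (GGG, any 5 bases, CC), to TTCNNNGAA (the core bound by STAT dimers) or to a loose interferon-stimulated response element, ISRE (GAAA, any 2 bases, GAAA).
Cxcl9: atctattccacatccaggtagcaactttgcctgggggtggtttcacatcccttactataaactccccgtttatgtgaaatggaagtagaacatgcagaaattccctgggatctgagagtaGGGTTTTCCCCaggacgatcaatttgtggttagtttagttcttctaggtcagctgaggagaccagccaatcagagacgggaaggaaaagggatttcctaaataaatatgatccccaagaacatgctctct
Cxcl10: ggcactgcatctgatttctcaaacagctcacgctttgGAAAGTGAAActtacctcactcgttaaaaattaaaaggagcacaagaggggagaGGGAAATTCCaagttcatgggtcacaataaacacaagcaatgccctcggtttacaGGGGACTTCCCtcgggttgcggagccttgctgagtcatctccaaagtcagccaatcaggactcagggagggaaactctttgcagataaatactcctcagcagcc
Cxcl12: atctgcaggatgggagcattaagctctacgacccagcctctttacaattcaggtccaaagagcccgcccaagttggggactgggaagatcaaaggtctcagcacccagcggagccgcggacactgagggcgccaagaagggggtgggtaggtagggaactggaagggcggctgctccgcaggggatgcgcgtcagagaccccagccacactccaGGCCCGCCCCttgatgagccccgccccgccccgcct
Cxcl13: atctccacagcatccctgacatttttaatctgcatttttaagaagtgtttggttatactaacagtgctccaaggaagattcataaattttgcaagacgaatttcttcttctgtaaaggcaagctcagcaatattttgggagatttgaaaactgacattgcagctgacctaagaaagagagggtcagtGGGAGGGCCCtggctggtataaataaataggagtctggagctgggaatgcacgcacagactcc
The promoter of Cxcl10 held a match to the ISRE motif at -213 to -204 from the start and matches to the NF-kB motif at -159 to -150 and, in 2 overlapping registers, from -104 to -94. In Cxcl9 the NF-kB motif matched in 2 overlapping registers from -130 to -120. Cxcl12 and Cxcl13 held a match each to that motif, at -36 to -27 and at -63 to -54, and TTCNNNGAA matched none of these 4 windows. Over the family, the NF-kB motif matched in 12 of the 20 genes (60%) and in 50.8% of the 32851 promoters of the table, the ISRE motif in 2 (10%) and 3.44%, and TTCNNNGAA in 2 (10%) and 8.3%. The other gene with the ISRE motif was Cxcl14. The matches to TTCNNNGAA were in Ccl17 and Cxcl14. A match is a description of the letters in a window and not a binding site.

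Facts of the whole series were as follows. All values are log2 expression values made with RMA, 1 unit is 2-fold, and a probe set's level cannot be set against that of another. The median over all probe sets was 6.22 to 6.27 on every array. Of the targeted genes, Rbl2 (p130) lay at 6.77 to 8.43 in tumours, below its 9.44 to 10.02 in livers. Rb1 lay at 8.76 to 9.38 in tumours, above its 7.69 to 8.33 in livers, and Rbl1 (p107) at 4.63 to 4.82 in tumours, within its 4.23 to 5.83 in livers. Whether these probe sets fall in the deleted parts was not determined, so they do not check the labels. The Actb control read at the 3' end exceeded that at the 5' end, on the log2 scale, by 0.528 to 0.716 in tumours and by 0.908 to 1.00 in livers. This sign of transcript length moved with the groups, and its part in the results was not tested. Xist was low on 3 arrays, at 6.34 to 6.66 in tumours 1 and 2 and liver 4, and 12.68 to 13.55 elsewhere. Background was read from the bacterial TrpnX control (3.69 to 4.36) and from 38 odorant receptor genes, the 95th percentile of whose means was 6.10 in tumours and 6.23 in livers. In bulk tissue, fewer cells of a type and less RNA per cell cannot be told apart.

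Of the 30 chemokine genes, 6 fell in the tumours and none rose (limma, Benjamini-Hochberg adjusted p under 0.05 over all genes). Over all 18193 genes 17.4% fell and 16.1% rose, and 33.5% passed in either direction. At an unadjusted p under 0.05 there were 7 lower and 2 higher chemokine genes. The 20% of members that fell lay near the share of all genes, and the median difference was -0.11 for the members and -0.08 for all genes. Every tumour lay to one side of every liver for 3 members, Cxcl12, Ccl24 and Ccl22, against 29.8% of all genes. The genes that fell were Cxcl9, Cxcl12, Cxcl13, Ccl24, Ccl22 and Cxcl3. The count was 3 without tumour 5, without liver 3 or without the 3 arrays with low Xist. Cxcl12 alone passed as lower with arrays centred on 11 housekeeping genes, where Cxcl10 and Cxcl16 passed as higher. Of those 11 genes 6 themselves rose and 1 fell in the tumours, so they are no fixed reference. Centring on them moved the median of all genes to 0.31, and the calls lost and gained there depend on that shift.

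Part of the family was near background. Over all 18193 genes, 5636 had both group means at or below the odorant receptor level. For 12 of the 30 genes both group means lay at or below the odorant receptor level: Cxcl2, Cxcl3, Cxcl5, Cxcl15, Ccl1, Ccl3, Ccl7, Ccl11, Ccl12, Ccl17, Ccl20 and Ccl22. The means of Cxcl3 and Cxcl5 were also below the highest TrpnX reading in both groups, against 1184 of all 18193 genes at or below it. Differences of genes near background are compressed, so the size of a change in them cannot be read here.

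**Figure D1:**
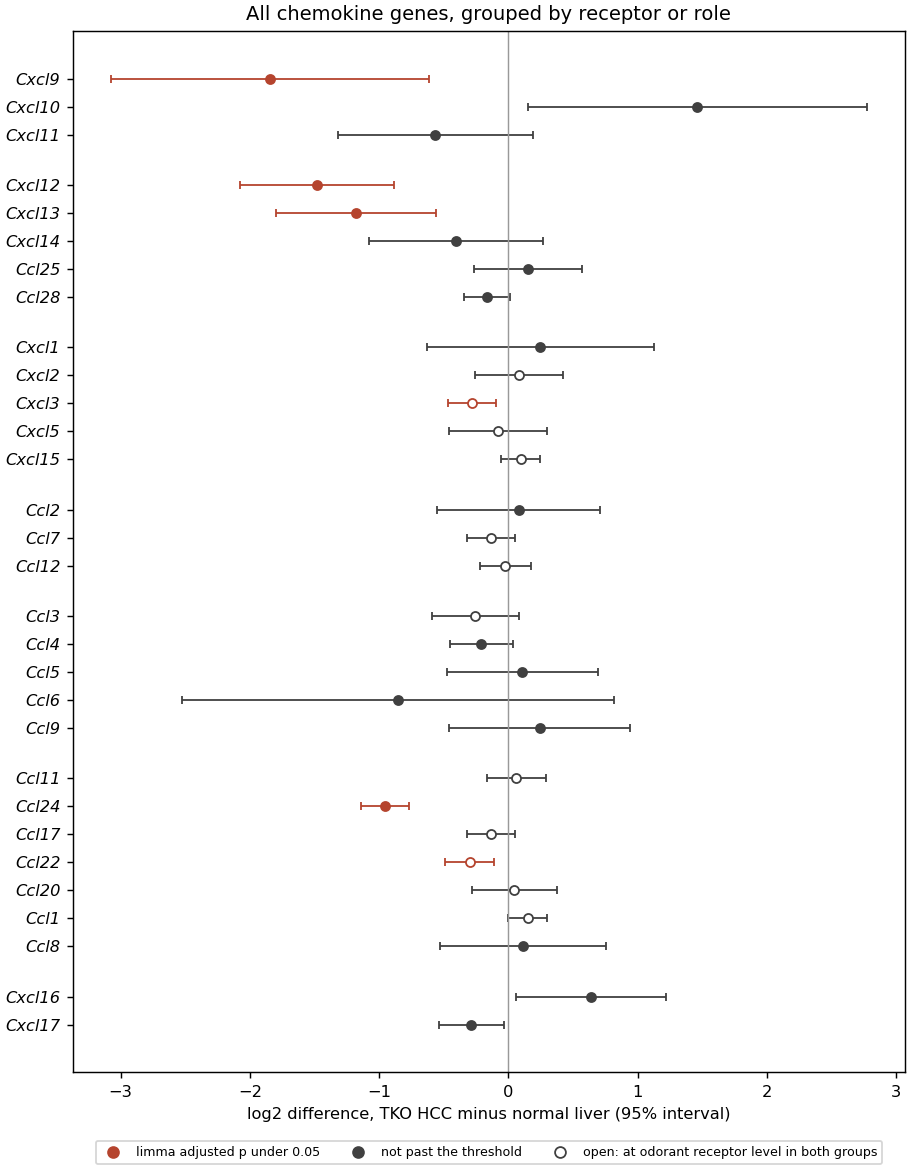
Log2 difference, TKO HCC minus normal liver, with its 95% interval (x axis) for all 30 chemokine genes (y axis), grouped by receptor or role. The 6 genes past the threshold, in red, all lie left of 0, and open circles mark the 12 genes at the odorant receptor level in both groups.

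The constitutive stromal chemokine Cxcl12, the ligand of CXCR4, fell in all tumours. Its values were 10.54, 10.41, 9.81, 9.83 and 11.19 in tumours 1 to 5, against 11.88, 11.89, 11.90 and 11.68 in livers 1 to 4. The livers were nearly alike, every tumour lay below every liver, and tumour 5 came closest to them. The log2 difference was -1.48 (SE 0.26, 95% interval -2.08 to -0.89, limma adjusted p = 0.00282), a level 2.79-fold lower. A second bright Cxcl12 probe set gave -1.21 and a dim one, at 5.87 in tumours and 6.16 in livers, gave -0.30. Cxcl12 passed in all 17 alternative settings tried, with differences of -1.69 to -1.00.

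Cxcl13, which draws B cells into lymphoid follicles and is also made by macrophages, was lower in the tumours with both of its probe sets. The probe set used read 7.50, 6.88, 7.29, 7.10 and 6.83 in tumours 1 to 5, against 8.43, 8.36, 8.95 and 7.46 in livers 1 to 4. Liver 4 was the lowest liver and lay just under tumour 1. The difference was -1.18 (SE 0.27, limma adjusted p = 0.0103), and -0.79 with an adjusted p of 0.0589 after housekeeping centring. The dimmer probe set gave a larger difference of -2.59, with 6.78, 4.49, 6.55, 5.31 and 4.94 in tumours 1 to 5, against 8.47, 8.59, 9.33 and 6.44 in livers 1 to 4. On both probe sets tumour 1 was the highest tumour and liver 4 the lowest liver.

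Of the other chemokines with constitutive or epithelial sources, Cxcl14, Ccl25 and Ccl28 did not pass. Cxcl14, an epithelial chemokine, was 5.67 to 6.43 in tumours, against 6.10, 6.03, 5.96 and 7.40 in livers 1 to 4, with a difference of -0.40 (95% interval -1.08 to 0.27). Its other probe set showed the same liver apart, with 8.61 in liver 4 and 4.98 to 5.46 in the other livers. Ccl25, the CCR9 ligand of thymus and gut, differed by 0.15 (95% interval -0.27 to 0.57), and Ccl28, a mucosal chemokine, by -0.17 (95% interval -0.34 to 0.01).

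The interferon-induced CXCR3 ligands did not move together. Cxcl9 was 6.55, 7.30, 8.59, 8.59 and 6.92 in tumours 1 to 5, against 9.08, 9.37, 10.69 and 8.59 in livers 1 to 4. The deposited value of 8.59 was identical in tumours 3 and 4 and liver 4, and the other tumours lay below every liver. Its difference was -1.84 (SE 0.55, 95% interval -3.07 to -0.61, limma adjusted p = 0.0293), a level 3.59-fold lower. The call was lost when any of 5 single arrays was left out: the adjusted p was 0.0584 without tumour 1, 0.0658 without tumour 5, 0.0536 without liver 1, 0.0611 without liver 2 and 0.0749 without liver 3, with differences of -1.42 to -1.96. It was also lost with the second Cxcl9 probe set (-0.66, adjusted p = 0.076). The means of that probe set, 4.99 in tumours and 5.65 in livers, lay below the odorant receptor level. The size of its difference therefore cannot be read. The call was lost as well after housekeeping centring (-1.46, adjusted p = 0.0602), without the 3 arrays with low Xist (-1.68, adjusted p = 0.08) and with the replicate number as a block (-1.68, adjusted p = 0.0566).

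Cxcl10 ran the other way. It was 7.87, 8.06, 10.77, 8.62 and 8.77 in tumours 1 to 5, against 6.92, 7.52, 8.27 and 6.70 in livers 1 to 4. Tumour 3 was far the highest, and liver 3 lay above tumours 1 and 2. The difference of 1.46 (SE 0.58, 95% interval 0.15 to 2.77) missed the threshold with a limma adjusted p of 0.0802. It was 0.97 without tumour 3. It passed in 2 of 17 alternative settings, after housekeeping centring (1.85, adjusted p = 0.0162) and with the replicate number as a block (1.47, adjusted p = 0.0444). Cxcl11 was 7.10, 6.49, 8.25, 7.67 and 6.88 in tumours 1 to 5, against 7.96, 7.68, 8.24 and 7.48 in livers 1 to 4. Its difference of -0.57 (95% interval -1.32 to 0.19) did not pass, although it passed without tumour 3 (-0.81, adjusted p = 0.0493).

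The contrast between Cxcl9 and Cxcl10 was also compared within each array, where scaling cancels, a comparison chosen after both genes' values had been seen. The log2 value of Cxcl10 minus that of Cxcl9 was 1.31, 0.76, 2.18, 0.02 and 1.85 in tumours 1 to 5, against -2.16, -1.85, -2.42 and -1.89 in livers 1 to 4. All tumours lay above all livers, and tumour 4 was the closest to them. The mean was 1.22 ± 0.86 for the 5 tumours (SD, n = 5), against -2.08 ± 0.27 for the 4 livers (SD, n = 4). The group means differed by 3.30. This is a description with no test, because the pair was chosen for its opposite signs. Within each group the array with the most Cxcl10, tumour 3 or liver 3, was also among the highest for Cxcl9, and the shift between the groups lay across that trend. Because the sign of such a difference depends on how bright each probe set is, only its change between the groups can be read.

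**Figure D2:**
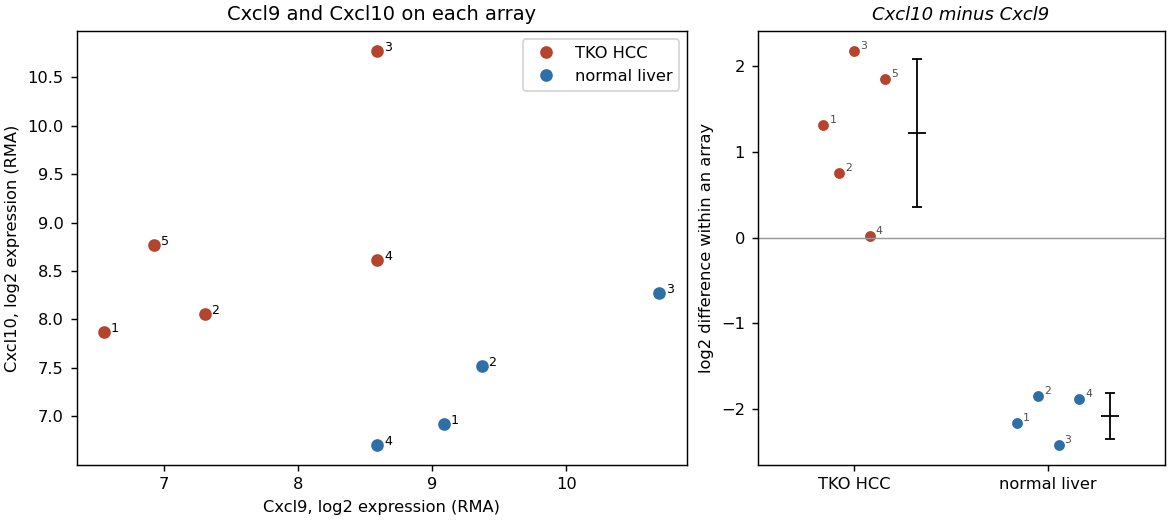
Left, Cxcl10 (y axis) against Cxcl9 (x axis) in log2 expression values on each of the 9 arrays, numbered by replicate. Right, the log2 difference between them within an array, with mean and SD. The 5 tumours lie between 0.02 and 2.18 and the 4 livers between -2.42 and -1.85.

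Ccl24 (eotaxin-2), a CCR3 ligand that draws eosinophils and is made by macrophages, had the smallest adjusted p of the family. It was 6.37, 6.39, 6.47, 6.41 and 6.50 in tumours 1 to 5, against 7.24, 7.34, 7.57 and 7.40 in livers 1 to 4. The groups were tight and well apart. The difference was -0.96 (SE 0.08, 95% interval -1.14 to -0.77, limma adjusted p = 4.47e-05), or 1.94-fold lower, and -0.57 after housekeeping centring (adjusted p = 0.056). The tumour mean of 6.43 lay little above the odorant receptor level of 6.10, so the full size of the fall was not measurable. Ccl22, a CCR4 ligand of dendritic cells and macrophages, was 5.59 to 5.83 in tumours, against 5.84 to 6.11 in livers. It fell by 0.30 on the log2 scale (limma adjusted p = 0.024), with both groups near background, and its call was lost without tumour 5 (adjusted p = 0.0558), liver 1 (0.0661) or liver 3 (0.0583), without the 3 arrays with low Xist (0.109) and with the replicate block (0.0905). With housekeeping centring its difference was 0.09 (adjusted p = 0.742).

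The remaining ligands of CCR3, CCR4, CCR6 and CCR8 did not pass. Ccl11 (eotaxin-1), Ccl17 (CCR4), Ccl20 (CCR6) and Ccl1 (CCR8) were near background, with differences of -0.13 to 0.15. Ccl8, a CCR8 ligand in mice, was 7.48, 6.17, 7.32, 6.45 and 6.44 in tumours 1 to 5, against 6.77, 6.54, 6.97 and 6.35 in livers 1 to 4. Tumours 1 and 3 lay above every liver while tumour 2 lay below, and the difference was 0.11 (95% interval -0.53 to 0.76).

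Among the neutrophil chemokines, Cxcl1 was the only member above the odorant receptor level. It was 10.11, 10.71, 10.99, 11.00 and 10.68 in tumours 1 to 5, against 10.55, 11.49, 10.50 and 9.26 in livers 1 to 4. The livers spread over 2 units and enclosed the tumours, and the difference was 0.25 (95% interval -0.63 to 1.12). The probe set used is of the s_at type, which can cross-hybridise with similar genes, and the 2 others gave 0.26 and -0.13. Cxcl3 was 3.60 to 3.82 in tumours, against 3.77 to 4.06 in livers, all within or below the TrpnX range. It fell by 0.28 on the log2 scale with a limma adjusted p of 0.0283, and this call was lost without tumour 1 (adjusted p = 0.0546), 4 (0.0537) or 5 (0.0642), without liver 2 (0.064), 3 (0.0691) or 4 (0.0672), without the 3 arrays with low Xist (0.162) and with the replicate block (0.129). With housekeeping centring its difference was 0.10 (adjusted p = 0.691). Cxcl2, Cxcl5 and Cxcl15 differed by 0.08, -0.08 and 0.10 without passing.

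The monocyte and macrophage chemokines did not differ between the groups beyond their spread, while single tumours stood apart. Ccl2, the main CCR2 ligand, was 6.39, 6.23, 7.73, 6.55 and 6.77 in tumours 1 to 5, against 6.69, 6.87, 6.68 and 6.38 in livers 1 to 4, so that tumour 3 alone lay above the livers. The difference was 0.08 (95% interval -0.55 to 0.71). The CCR2 ligands Ccl7 and Ccl12 were near background.

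Ccl9, a CCR1 ligand found in mice, was 12.16, 13.22, 12.30, 13.35 and 13.63 in tumours 1 to 5, against 12.74, 12.77, 12.91 and 12.35 in livers 1 to 4. Tumours 2, 4 and 5 lay above every liver and tumours 1 and 3 below every liver, so the tumours split around a narrow liver range, and its second probe set read 11.84, 12.86, 11.81, 12.99 and 13.26 in the same tumours. The difference was 0.24 (95% interval -0.46 to 0.94). Its neighbour in the family Ccl6, also a CCR1 ligand of mice, was 6.66, 7.89, 9.41, 10.36 and 9.63 in tumours 1 to 5, against 10.25, 9.87, 10.10 and 8.37 in livers 1 to 4. Tumours 1 and 2 lay below every liver and tumour 4 above, with a difference of -0.86 and a 95% interval of -2.52 to 0.81 that is too wide to show a change of either sign.

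Ccl5 (RANTES), a chemokine made by T cells and NK cells, was 7.11, 6.65, 7.85, 7.11 and 7.11 in tumours 1 to 5, against 7.11, 7.17, 7.50 and 6.46 in livers 1 to 4. Tumour 3 was again the highest, the deposited value of 7.11 was shared by 4 arrays, and the difference was 0.11 (95% interval -0.48 to 0.69). The inflammatory chemokines Ccl3 and Ccl4 differed by -0.26 (95% interval -0.59 to 0.08) and -0.21 (95% interval -0.45 to 0.04), Ccl3 near background.

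Cxcl16, a membrane-anchored chemokine that binds CXCR6 on T and NKT cells, lay above every liver in 4 of 5 tumours. It was 9.10, 8.60, 10.10, 9.44 and 9.27 in tumours 1 to 5, against 8.75, 8.75, 8.75 and 8.40 in livers 1 to 4. Only tumour 2 lay within the liver range. The difference of 0.64 (SE 0.26, 95% interval 0.06 to 1.22) missed the threshold with a limma adjusted p of 0.0825, and its second probe set gave 1.01. It passed in 3 of 17 alternative settings: without tumour 2 (0.81, adjusted p = 0.0175), without the 3 arrays with low Xist (0.85, adjusted p = 0.0292) and after housekeeping centring (1.03, adjusted p = 0.0195). Cxcl17, a mucosal chemokine, was 6.69 to 6.97 in tumours, against 6.97 to 7.36 in livers, and differed by -0.29 (95% interval -0.54 to -0.04) with an adjusted p of 0.0729.

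**Figure D3:**
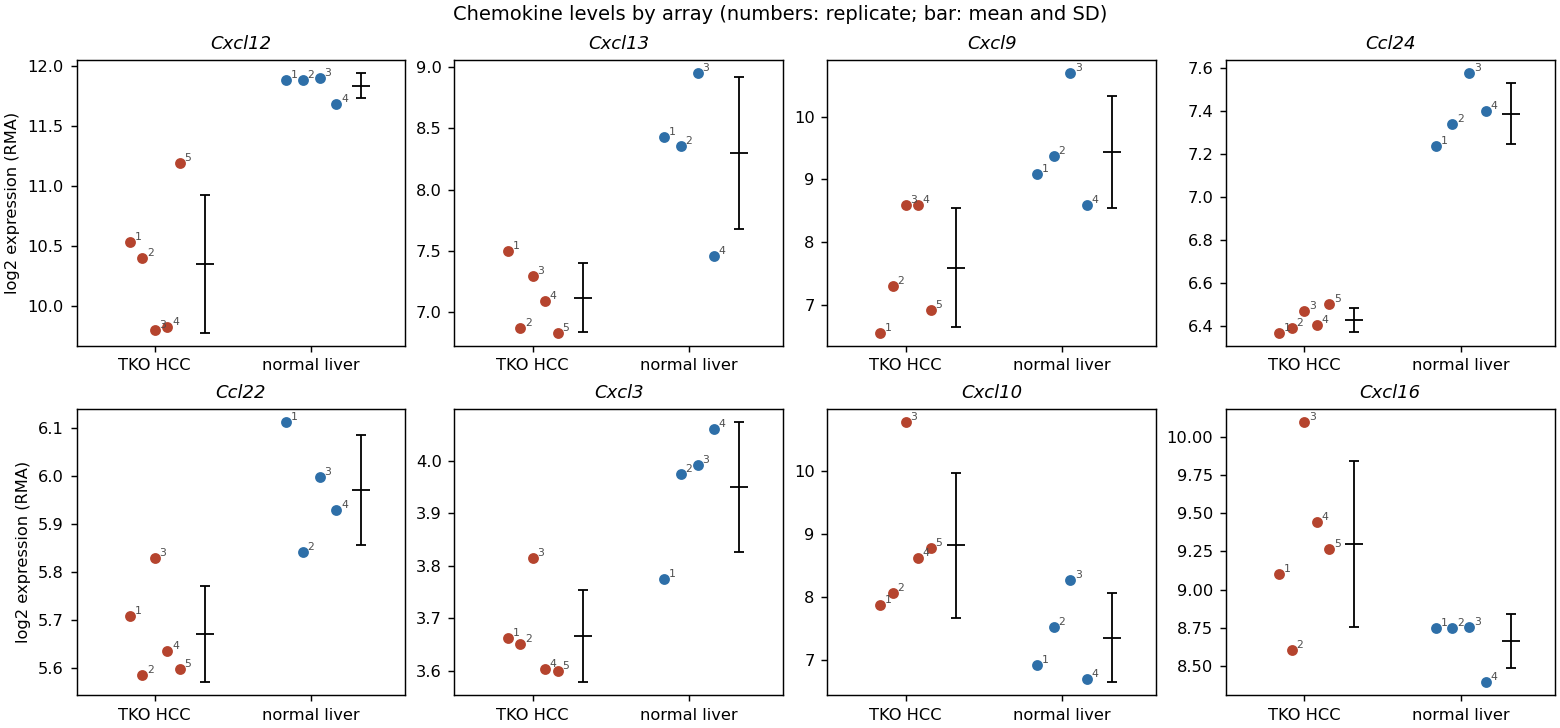
Log2 expression values (y axis, each panel with its own scale) in 5 TKO HCCs and 4 normal livers (x axis) for the 6 chemokine genes past the threshold and for Cxcl10 and Cxcl16. Points are arrays numbered by replicate and bars are mean and SD; tumours lie below livers for Cxcl12, Ccl24 and Ccl22, while tumour 3 is the highest array for Cxcl10 and Cxcl16.

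The order of the arrays was tallied over the 18 genes above the odorant receptor level in a group. Tumour 3 was the highest tumour in 7 and the lowest in 3, whereas tumour 1 was the lowest in 7 and the highest in 4. Liver 3 was the highest liver in 11 and the lowest in 1, and liver 4 was the lowest in 12 and the highest in 2. Liver 4 is also the liver with low Xist. These counts describe single arrays and have no test.

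On the receptor side, 1 of 16 measured receptors rose and 2 fell, against 16.1% and 17.4% of all genes. Cxcr4, the receptor of Cxcl12, was 6.42, 7.54, 9.39, 7.11 and 6.99 in tumours 1 to 5, against 5.34, 5.37, 5.83 and 5.53 in livers 1 to 4. Every tumour lay above every liver, and tumour 3 was the highest. Cxcr4 rose by 1.98 (SE 0.51, limma adjusted p = 0.0167), from liver values below the odorant receptor level, and passed in all 17 alternative settings, with differences of 1.50 to 2.36. Ccr2 fell by 0.41 (adjusted p = 0.0122) and Cxcr2 by 0.25 (adjusted p = 0.0371) on the log2 scale. After housekeeping centring they differed by -0.02 and 0.14, and without the 3 arrays with low Xist neither passed (-0.34, adjusted p = 0.0771, and -0.29, adjusted p = 0.0865). The call of Ccr2 was also lost with its second probe set (-0.39, adjusted p = 0.205), and that of Cxcr2 without tumour 1, 4 or 5 or without liver 1, 2 or 3 (adjusted p 0.0591 to 0.0924). Of the receptors whose ligands are described above, Cxcr3 differed by -0.01 (95% interval -0.24 to 0.23), while Cxcr5 (-0.16) and Cxcr6 (-0.42) were near background in both groups.

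Of 5 atypical receptors and relatives, 3 fell and 1 rose, on the same background of 17.4% and 16.1% of all genes, which holds for each count below. Ackr4, which scavenges the CCR7 ligands and Ccl25, fell by 0.70 (SE 0.15, adjusted p = 0.00757), Ackr1, a carrier of many chemokines on venular endothelium and red cells, by 0.62 (SE 0.16, adjusted p = 0.0166), and Ackr2, which scavenges inflammatory CC chemokines, by 0.41 (SE 0.12, adjusted p = 0.0236), all on the log2 scale. Another probe set of Ackr4 gave -0.04 and of Ackr2 -0.12, both without passing, and without the 3 arrays with low Xist the adjusted p was 0.0537 for Ackr4 and 0.102 for Ackr2. Ackr4, Ackr2 and Ackr1 did not pass after housekeeping centring (-0.31, -0.02 and -0.23), and Ackr2 did not pass without liver 1 (-0.33, adjusted p = 0.0637). Ccrl2 rose by 0.49 (SE 0.13, adjusted p = 0.0191), a call lost without liver 2 (adjusted p = 0.0545) or liver 4 (0.0509) and with centring on the 75th percentile (0.0626). Ackr3, the other receptor of Cxcl12, was 5.24, 6.99, 7.58, 5.78 and 5.22 in tumours 1 to 5, against 5.46, 5.99, 5.56 and 4.66 in livers 1 to 4, a difference of 0.75 (95% interval -0.43 to 1.93). Of 5 chemokines outside the symbol rule that had a probe set of their own, Ccl27a, a CCR10 ligand, fell by 1.67 (SE 0.26, adjusted p = 0.00139) with a probe set of the x_at type that can cross-hybridise with its near-identical copies. The platelet chemokines Pf4 and Ppbp, Xcl1 and Cx3cl1 did not pass.

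Among 15 cytokines that induce or accompany chemokines, 1 rose and 4 fell. Tgfb1 rose by 1.41 (SE 0.23, adjusted p = 0.00178), while a second probe set gave -0.11. Il18, which induces interferon gamma, fell by 1.74 (SE 0.29, adjusted p = 0.00213), Il1b by 1.06 (SE 0.22, adjusted p = 0.0054) and Il1a by 0.90 (SE 0.13, adjusted p = 0.00112), and the calls of Il1b and Il1a were lost after housekeeping centring (-0.68 and -0.52). Ifng itself was 3.94 to 4.02 in tumours, against 3.83 to 4.34 in livers, within the TrpnX range. Of interferon-stimulated genes 6 of 26 rose, beside 16.1% of all genes, and none fell. The other 20 did not pass. Differences over the list ran from -0.93 (Gbp2) to 2.56, with a median of 0.10. Oas1a, an antiviral enzyme, rose by 2.56 (SE 0.42, adjusted p = 0.00185), Tap1, a peptide transporter of antigen presentation, by 0.93 (SE 0.25, adjusted p = 0.0193) and Psmb8, an immunoproteasome subunit, by 1.13 (SE 0.34, adjusted p = 0.0302). Psmb8 gave 0.51 with a second probe set (adjusted p = 0.0652), and its call was lost without tumour 1, 3, 4 or 5 or without liver 1, 3 or 4 (adjusted p 0.0533 to 0.0767). With the replicate block the calls of Psmb8 (adjusted p = 0.119) and Tap1 (0.0956) were lost. The call of Tap1 was also lost without liver 4 (0.84, adjusted p = 0.0528). With the mean of its probe sets Tap1 differed by 0.33 (adjusted p = 0.0205). Over that list the mean level was 7.86 to 9.40 in tumours, against 7.81 to 8.56 in livers. Of 12 NF-kB pathway genes 4 rose and 1 fell: Icam1, an adhesion molecule for leukocytes, rose by 1.14 (SE 0.17, adjusted p = 0.000994), Tnfaip3, a feedback inhibitor, by 2.07 (SE 0.37, adjusted p = 0.0028) and the subunit Rela by 0.84 (SE 0.16, adjusted p = 0.00337), and Birc3 fell by 0.62 (SE 0.16, adjusted p = 0.0169). Second probe sets gave 0.50 for Tnfaip3 (adjusted p = 0.0523) and -0.08 for Birc3 (adjusted p = 0.597), and Birc3 was -0.23 after housekeeping centring (adjusted p = 0.531).

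Markers of the cells that make or answer chemokines also moved with the groups, and their part in the results above was not tested. Of the 50 genes past the threshold in the receptor, cytokine, pathway and marker lists and among the chemokines outside the rule, 17 kept their call in every setting tried. Kupffer cell and macrophage markers had 6 of 12 down and none up, with a mean level of 7.22 to 9.18 in tumours and 9.26 to 10.25 in livers. Clec4f fell by 3.51 (SE 0.57). Timd4, of resident Kupffer cells, and Cd163 fell by 2.90 (SE 0.19) and 3.49 (SE 0.58), with tumour means of 4.67 and 4.79 that lie below the odorant receptor level, so these sizes are not full measurements. Of the 6 members of that list that did not pass, Cd5l (-1.77) and Adgre1 (-0.53) had negative differences. Those of Cd68 (0.69), C1qb (0.35), C1qc (0.23) and C1qa (0.08) were positive. Endothelial markers had 6 of 10 down and none up, at 6.90 to 8.37 in tumours and 8.69 to 9.32 in livers. The 4 that did not pass were Pecam1 (0.40), Cdh5 (-0.10), Stab1 (-0.18) and Lyve1 (-0.37). Kdr, a receptor of vascular growth factor, and Stab2, of sinusoids, fell, with differences of -1.15 (SE 0.12) and -1.60 (SE 0.24). Clec4g, also of sinusoids, fell by 4.08 (SE 0.62), while its second probe set gave -0.26 (adjusted p = 0.207).

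Hepatic stellate cell markers moved both ways, with 4 of 10 down and 2 up. Reln fell by 2.66, Lrat by 1.90, Hhip by 1.08 and Rgs5 by 1.19, Hhip at the odorant receptor level in both groups. The collagen genes Col1a1 and Col3a1 rose by 2.14 and 1.84. Second probe sets did not pass for Reln (-0.09), Lrat (-0.75), Rgs5 (-1.54), Col1a1 (0.47) or Col3a1 (1.07). Rgs5 lost its call after housekeeping centring (-0.80, adjusted p = 0.129), without the 3 arrays with low Xist (-0.79, adjusted p = 0.157) and without any array other than tumour 1 or 3. Lrat lost it without liver 3 (adjusted p = 0.056) and Col3a1 without liver 1 (adjusted p = 0.052).

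T cell markers had none of 8 past the threshold by limma and none at an unadjusted p under 0.05, with 4 of 8 at the odorant receptor level in both groups. Their mean level was 5.96 to 6.57 in tumours, against 6.01 to 6.33 in livers. Tumour 3 had the highest T cell level, 6.57, and also the highest Cxcl10, Cxcl16, Ccl2, Ccl5 and Cxcr4. It was the lowest tumour for Cxcl12, and the highest for markers of other cells too, such as Cd68, C1qb, Lyz2 and Col1a1. No link to T cells can be read from this. Neutrophil markers had none of 7 past the threshold by limma, nor at an unadjusted p under 0.05, at 6.19 to 8.06 in tumours and 6.75 to 8.73 in livers. Hepatocyte markers were bright in both groups and none of 7 passed by limma (1 was lower at an unadjusted p under 0.05), at 13.72 to 14.48 in tumours and 14.51 to 14.60 in livers.

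For the other cell types few markers passed, and housekeeping centring ended most of those calls. The housekeeping genes themselves differed between the groups, so such a loss depends on that reference. Of NK cell markers 2 of 7 fell, Klrk1 by 0.76 and Gzma by 0.49, and 5 of 7, Gzma among them, were at the odorant receptor level in both groups. B and plasma cell markers had 2 of 6 down, Ms4a1 (-1.12) and, at the odorant receptor level in both groups, Blk (-0.50). After housekeeping centring none of the 4 passed, at -0.37, -0.10, -0.73 and -0.11. Ms4a1 also missed with its second probe set (-0.44) and when any of 7 single arrays was left out, Gzma without tumour 1 or 5 or liver 2 or 3, and Klrk1 without liver 1 or 3. The replicate block ended the calls of Ms4a1 (adjusted p = 0.186), Gzma (0.0827) and Klrk1 (0.107). Of monocyte markers 1 of 5 fell, Ccr2, given above. Single markers also fell in dendritic cells (1 of 7, Zbtb46, -0.37), platelets (1 of 5, Itga2b, -0.30) and bile duct (1 of 6, Krt7, -0.29, at the odorant receptor level in both groups). Housekeeping centring turned their signs (Zbtb46 0.022, Itga2b 0.087, Krt7 0.10), and their calls were lost in 5, 6 and 8 of the 9 settings that left out 1 array. The bile duct marker Sox9 rose by 1.32, but did not pass with its second probe set (0.86, adjusted p = 0.142) or without tumour 1, 3 or 5 or liver 1 or 3.

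**Figure D4:**
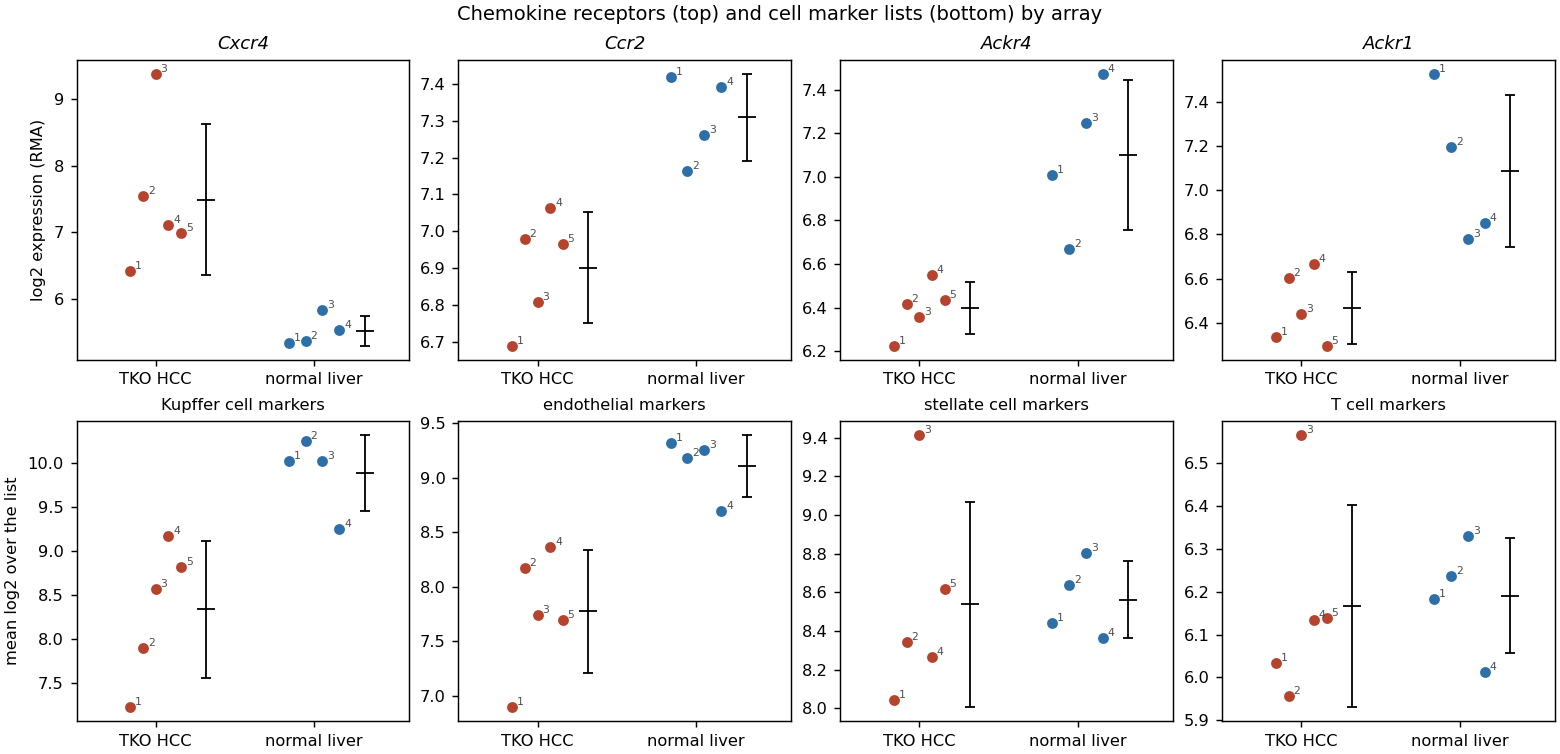
Top, log2 expression values of 4 chemokine receptors in 5 TKO HCCs and 4 normal livers; bottom, the mean log2 level over 4 marker lists on the same arrays, each panel with its own scale. Cxcr4 is above the livers in every tumour, Ccr2, Ackr4 and Ackr1 are below the livers in every tumour, and Kupffer cell and endothelial lists are below the livers in every tumour.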

How the data were processed

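RNA from 5 tumours and 4 livers was isolated with Trizol and underwent 2 RiboAmp amplification rounds, per the labels' protocols. The authors deposited 1 log2 value for each probe set and array. RMA is the tool that the submitters' processing notes name, with no version or settings. As commonly run, it makes array distributions alike and compresses differences of dim probe sets. The table holds 45101 probe sets with values of 3.13 to 15.5.

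Samples were grouped by title. Of the probe sets, 34945 named 1 gene in the platform annotation, 932 several and 9160 none, and 64 were controls. Of the single-gene probe sets, 34741 were found by gene identifier in the RefSeq table, with 0 symbols changed. The brightest probe set over all 9 arrays stood for a gene. For the chemokines, 45 probe sets named a member, and 4 probe sets naming several genes with a Ccl symbol were not used. Groups were compared with limma 3.58.1 (lmFit, eBayes, two-sided) in R 4.3.3 over all 18193 genes, with Benjamini-Hochberg adjustment and a threshold of 0.05, and the test was tested on simulated data. Every adjusted p is from that test. Python 3.11.15 was used for the remaining steps. Alternatives were centring on the array's median of 11 housekeeping genes or on its 75th percentile, and other probe sets. Others were a filter on dim genes, a variance trend, leaving out arrays, and the replicate number as a block. Precision is limited by how few arrays there are. No scan batch could be tested, because none is given in the labels.

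The members, gene lists and tests were chosen with earlier results of these data known. All members were to be accounted for, with per-array values for those past the threshold and for Cxcl9 and Cxcl12. Members at the TrpnX level in both groups were to be named without a test, and Cxcl3 is given with its test because it is among the 6 counted. Per-array values of other members were added after they had been seen. From other lists, up to 3 genes with the smallest adjusted p in each direction were to be named, and further genes named were chosen after their values were seen.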

Additional observations from a re-analysis of the deposited data

Results flagged for a closer look

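Single arrays far from the rest of their group were looked for among 60 groups of values, 30 genes in tumours and in livers, with Dixon's test. It marked 8, and chance gives about 1 in 20. Liver 4 was marked in 4: it was lowest for Cxcl12 at 11.68 (other livers 11.88 to 11.90) and for Cxcl16 at 8.40 (other livers 8.75), and highest for Cxcl14 at 7.40 (other livers 5.96 to 6.10) and for Cxcl5 at 4.08 (other livers 3.68 to 3.73). Tumour 3 was the highest tumour for Ccl20 at 6.53 (others 5.75 to 5.94) and for Cxcl2 at 5.08 (others 4.41 to 4.60). Tumour 1 was the highest for Cxcl15 at 5.82 (others 5.66 to 5.70), and tumour 5 the lowest for Ccl4 at 7.02 (others 7.24 to 7.31). Of these genes only Cxcl12 had passed the threshold, and without liver 4 its difference was -1.53.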

How the results depend on the processing

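The counts of chemokine genes depended on scaling and on single arrays. Of the 11 housekeeping genes used for scaling, 6 rose and 1 fell in the tumours, so they are not a fixed reference. Centring on housekeeping genes gave 1 lower and 2 higher members, and centring on the 75th percentile 11 lower, while the median of all genes was 0.31 and -0.23 against -0.08. The split over all genes, 2926 higher and 3165 lower, became 4202 and 610 with the first and 2406 and 6972 with the second, 9378 calls in all. Leaving out an array at a time gave 3 to 7 lower members (3 without tumour 5 or liver 3) and 0 to 1 higher, where Cxcl16 was the higher one without tumour 2. Without the 3 arrays with low Xist there were 3 lower and 1 higher. Replicate numbers were shared between the groups, but same-numbered pairs deviated with correlations of -0.13, -0.07, 0.18 and -0.12, so they were not taken as pairs. With the replicate block there were 3 lower members, 1 higher (Cxcl10) and 3552 calls over all genes. No liver has the number of tumour 5, so the block takes up that array. Its differences equal those without tumour 5, and these 2 settings are not independent. Cxcl12, Ccl24 and Cxcl13 remained among the lower members in every setting except housekeeping centring, where Cxcl12 alone remained. The within-array difference of Cxcl10 and Cxcl9 was 3.07 to 3.60 without each array in turn, and 3.49 without the 3 arrays with low Xist. These values use the Cxcl9 probe set whose difference was -1.84. With the other one, at -0.66 and near background in both groups, the contrast was smaller than all of them. Housekeeping centring turned the sign of Ccl22 (0.0886), Cxcl3 (0.10), Cxcr2 (0.14), Il17a (0.0037), Zbtb46 (0.0217), Krt7 (0.101) and Itga2b (0.0867), and the second probe set that of Tgfb1 (-0.11), none past the threshold then. Over the 30 members and all settings, 470 of 508 values kept their call, 24 lost it, 12 gained it and 2 changed sign; the causes were not tested. Dim probe sets limit what can be said of 12 members.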
